A study of Bos taurus with 12 samples.

Results

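The mRNAs described are those that were highest 9 d after adipogenic induction of bovine intramuscular preadipocytes: 93 of the 33714 rows of the mRNA table, or 0.276%. They were selected on the measured values themselves. A row was taken if its lowest 9 d value was at least 1 FPKM (fragments per transcript length, scaled to the mapped reads of a library) and at least 1.5 times the highest value of the 9 libraries of 0, 3 and 6 d. Of the 10556 rows with a lowest 9 d value of at least 1 FPKM, the members were 0.881%. The levels at 9 d are therefore a description with no test, and the tests concern the earlier days, other genes of the same pathways and circular RNAs. The rule also caps each earlier library below the 9 d level, so that tests between earlier days are not independent of it. The pathway lists were chosen with earlier results of these data known, so the tests of their other genes are not independent either.

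The cells were preadipocytes of newborn Qinchuan cattle, taken from longissimus dorsi muscle, grown to near confluence and given a medium with IBMX, dexamethasone and insulin for 2 days, then insulin alone. The groups differ by time: uninduced cells (0 d) and cells 3, 6 and 9 d after induction, with 3 libraries a day that the paper calls biological replicates. No group carries a genetic change, and no culture was kept without inducers to the later days, so that time in culture and induction cannot be told apart. The sample labels and the paper differ on the doses of insulin and dexamethasone, and on whether poly(A) RNA was selected or ribosomal RNA depleted.

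Preadipocytes turn into fat cells when a cyclic AMP elevating agent, a glucocorticoid and insulin together start a cascade of transcription factors, and fat storage and hormone genes such as leptin follow. Prostaglandins, made from membrane arachidonic acid by phospholipases and cyclooxygenases, act on their own receptors in preadipocytes, and prostaglandin F is known to hold back fat cell formation. NF-kB, the hypoxia-inducible factors and the ERK kinase pathway each switch on sets of well known target genes, among them cytokines, growth factors and the inhibitors that feed back on the same pathway.

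At 9 d the members spanned a mean of 1.18 to 6377 FPKM with a median of 22.2 FPKM. Of the 93, 28 had a mean of 100 FPKM or more, 29 lay from 10 to under 100 FPKM and 36 lay under 10 FPKM. The ratio of the lowest 9 d value to the highest earlier value had a median of 1.97. It was at least 2 in 43 members, at least 3 in 20, at least 5 in 8 and at least 10 in 4. All 93 passed the filter on low values used for the tests, a mean of at least 0.1 FPKM over the 12 libraries, and 90 had a mean of at least 0.1 FPKM before 9 d. The other 3, LOC404105, NLRP3 and ADGRF5, passed only through their 9 d values. Below the minimum level, 71 further rows met the same ratio with a lowest 9 d value above 0 and under 1 FPKM. The members include 8 rows that carry only a LOC identifier and 5 rows that join neighbouring loci, whose reads could belong to either gene. Because the samples are bulk cultures, fewer cells of a type and less RNA per cell cannot be told apart for any value given.

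**Figure D1:**
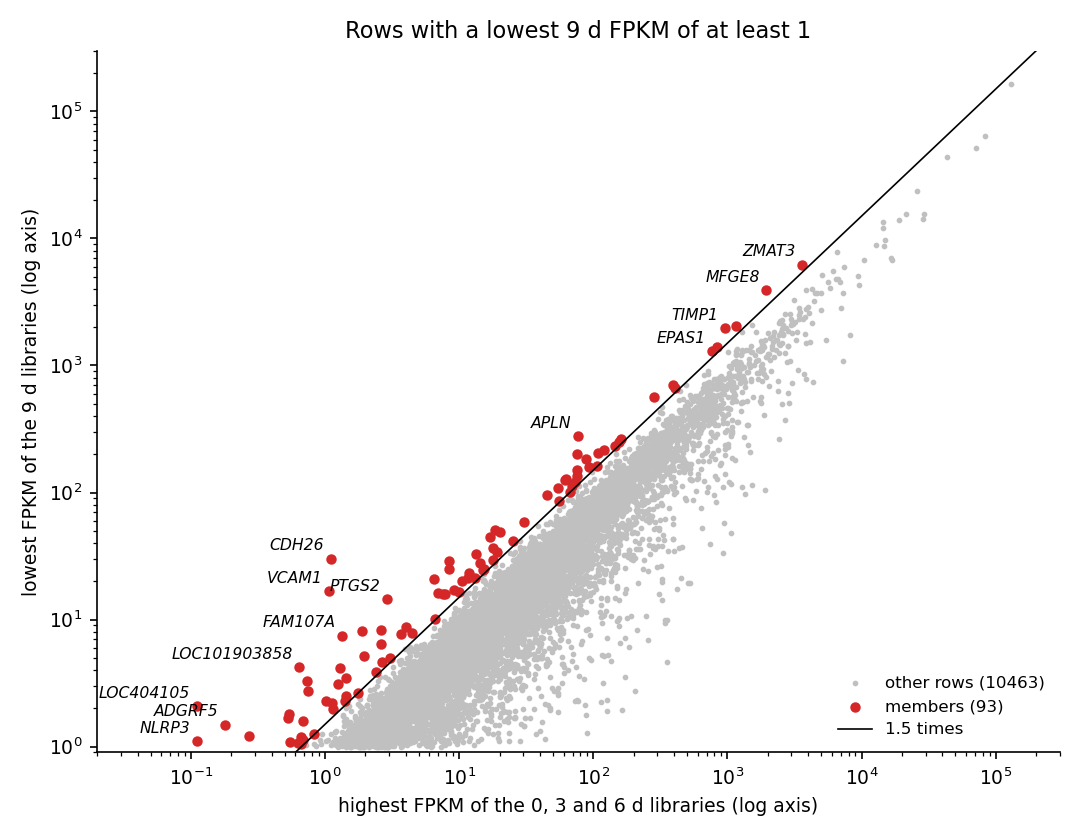
Lowest FPKM of the 3 libraries of 9 d against the highest FPKM of the 9 earlier libraries for the 10556 rows with a lowest 9 d value of at least 1 FPKM, both on log axes. Each point is a row. The 93 members (red) lie on or above the line of 1.5 times, and CDH26, VCAM1 and NLRP3 lie farthest from it beside LOC404105.

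At the threshold, PTPRE had a ratio of 1.51, with 162 FPKM in its lowest 9 d library and 107 FPKM in its highest earlier one. HEPH, with 2.65 and 1.75 FPKM, and DPYD, with 101 and 66.6 FPKM, followed inside it. Just outside stood KLF5, a transcription factor of early adipogenesis, with 115, 119.5 and 118 FPKM at 9 d and 76.9 FPKM in its highest earlier library. HSD3B7 (22.8 against 15.3 FPKM) and LOC104974137 (1.04 against 0.70 FPKM) were the next rows outside. These 6 rows lie close together, and the boundary between them marks no gap.

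CDH26, a cadherin that joins cells to each other, had the highest ratio. It measured 0.66, 0.97 and 0.89 FPKM at 0 d, 0.04, 0.19 and 0.14 at 3 d, 1.1, 1.09 and 0.99 at 6 d, then 32, 34.6 and 30.1 at 9 d. All 9 earlier libraries held at most 1.10 FPKM and the 9 d libraries held more than 30 FPKM. LOC404105 measured 0.06, 0.11 and 0.09 FPKM at 0 d, 0, 0.03 and 0.01 at 3 d, 0, 0.02 and 0.01 at 6 d, then 2.09, 2.25 and 2.42 at 9 d, so that it was near 0 in every earlier library. The row of VCAM1, the adhesion molecule that binds white blood cell integrins, is joined with LOC534578 and measured 0.38, 0.47 and 0.5 FPKM at 0 d, 0.4, 0.5 and 0.72 at 3 d, 1.07, 0.59 and 0.73 at 6 d, then 16.8, 18.3 and 19.5 at 9 d. Each of the 9 earlier libraries lay below 1.1 FPKM. NLRP3, the sensor protein of an inflammasome, measured 0.03, 0.03 and 0.11 FPKM at 0 d, 0, 0.01 and 0.01 at 3 d, 0.01, 0 and 0 at 6 d, then 1.1, 1.26 and 1.39 at 9 d. Before 9 d it was highest in a single 0 d library.

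ADGRF5, an adhesion G protein-coupled receptor, measured 0, 0.01 and 0 FPKM at 0 d, 0, 0.01 and 0 at 3 d, 0.13, 0.18 and 0.18 at 6 d, then 1.74, 1.53 and 1.49 at 9 d. Its 6 d libraries stood above all 0 and 3 d libraries, and the 9 d libraries far above both. LOC101903858 measured 0.44, 0.64 and 0.52 FPKM at 0 d, 0.02, 0 and 0 at 3 d, 0.18, 0.11 and 0.38 at 6 d, then 4.22, 4.57 and 4.93 at 9 d, with the 3 d libraries lowest. FAM107A, an actin-binding protein of stressed cells, measured 0.47, 0.49 and 0.43 FPKM at 0 d, 1.05, 1.14 and 1.33 at 3 d, 1.15, 0.98 and 0.95 at 6 d, then 7.99, 7.46 and 9.36 at 9 d. Here the 0 d libraries were lowest, and 3 and 6 d overlapped.

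PTGS2, the inducible cyclooxygenase, measured 1.74, 1.54 and 1.36 FPKM at 0 d, 1.21, 0.85 and 1.32 at 3 d, 2.21, 2.37 and 2.87 at 6 d, then 15.3, 18.8 and 14.5 at 9 d. FGF1, a growth factor with no signal peptide, measured 0.73, 0.64 and 0.65 FPKM at 0 d, 0.56, 0.65 and 0.56 at 3 d, 0.25, 0.22 and 0.56 at 6 d, then 3.29, 3.48 and 5.9 at 9 d. In both, the 0 and 3 d libraries lay close to each other, while 6 d lay above them in PTGS2 and at or below them in FGF1. The 9 d replicates of FGF1 also differed, 1 of them being 5.90 FPKM and the others under 3.5 FPKM. IL33, an alarmin of the interleukin-1 family, measured 0.2, 0.19 and 0 FPKM at 0 d, 0, 0 and 0.14 at 3 d, 0, 0.27 and 0.27 at 6 d, then 1.39, 1.21 and 1.48 at 9 d. It was listed at 0 in 4 of the 9 earlier libraries and at most 0.27 FPKM in the others. PTGDR, a receptor for prostaglandin D, measured 1.49, 1.36 and 1.6 FPKM at 0 d, 0.35, 0.62 and 0.4 at 3 d, 1.9, 1.66 and 1.8 at 6 d, then 8.29, 9.71 and 8.11 at 9 d. APLN, which encodes the secreted peptide apelin, measured 69.3, 66.5 and 40.6 FPKM at 0 d, 63, 52.8 and 59.7 at 3 d, 43.9, 76.2 and 73.3 at 6 d, then 277, 337 and 442 at 9 d. Its 3 earlier days overlapped, and its 9 d replicates were as far apart as 277 and 442 FPKM.

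**Figure D2:**
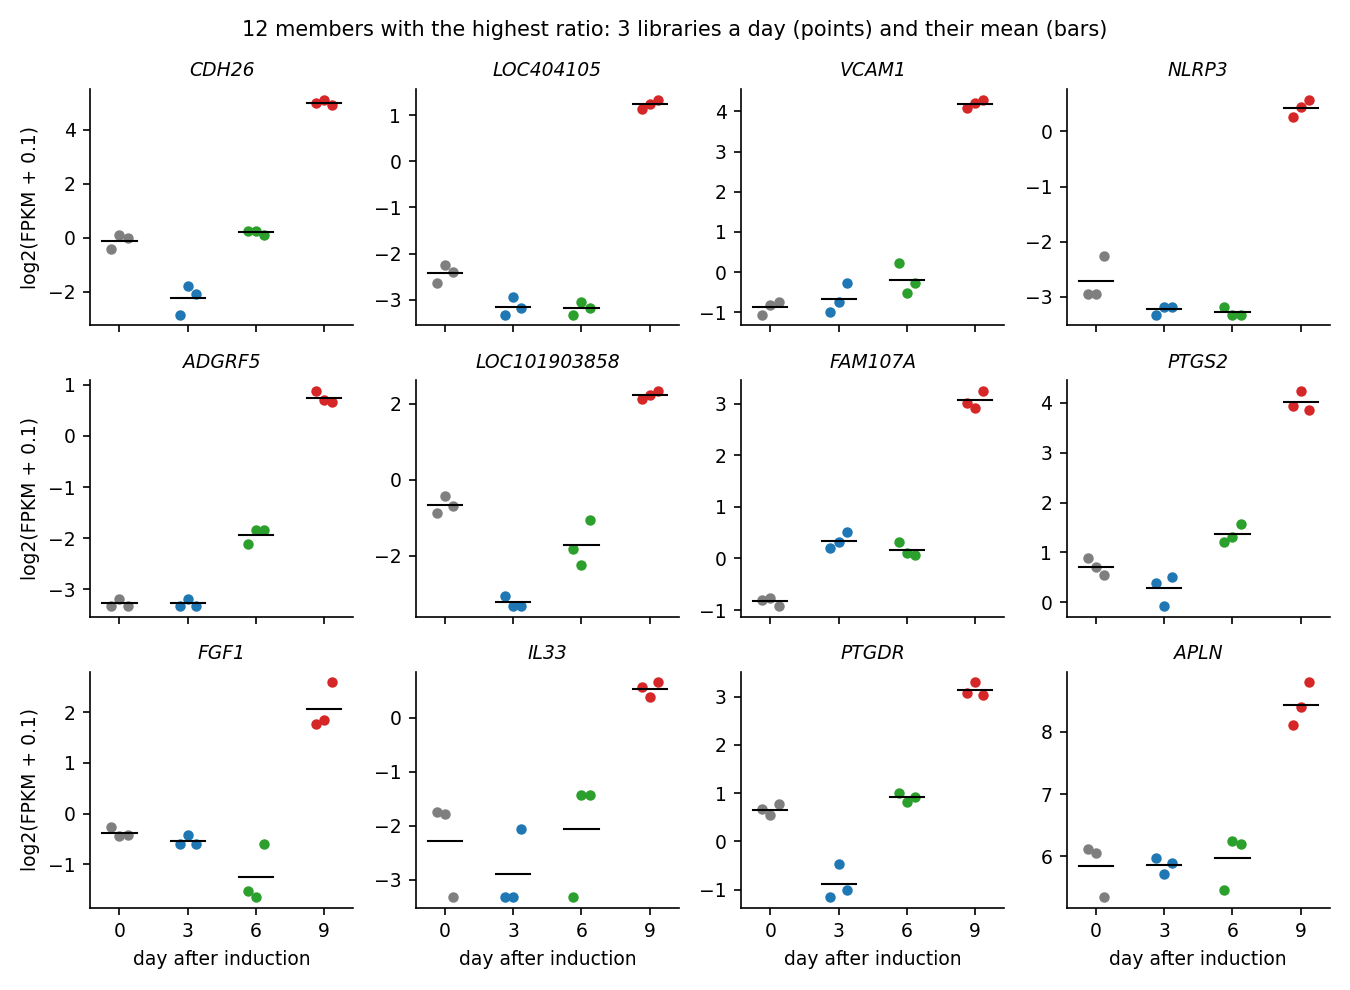
log2(FPKM + 0.1) by day for the 12 members with the highest ratio of the lowest 9 d value to the highest earlier value. Points are single libraries (3 a day) and bars are their means. In each panel the 9 d points stand above all earlier points, which the choice of members requires, and the order of 0, 3 and 6 d differs between genes.

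Among the most abundant members, ZMAT3, an RNA-binding protein induced by p53, measured 3612, 2814 and 3209 FPKM at 0 d, 2350.2, 2296 and 2538 at 3 d, 2839.6, 3049.5 and 2511 at 6 d, then 6473, 6426 and 6231 at 9 d. MFGE8, a secreted protein that tags dying cells for uptake, measured 1480.2, 1471 and 1508 FPKM at 0 d, 401, 471 and 460.1 at 3 d, 1948, 1929.8 and 1852 at 6 d, then 4349, 3892 and 4165 at 9 d. ZMAT3 lay between 2296 and 3612 FPKM on the 3 earlier days, while MFGE8 was more than 3 times lower at 3 d than at 0 or 6 d. SIRPA, the receptor for CD47, measured 915, 903 and 969 FPKM at 0 d, 998, 984 and 979 at 3 d, 1130.3, 1162 and 1136 at 6 d, then 2109.9, 2118 and 2063 at 9 d. TIMP1, an inhibitor of matrix metalloproteinases, measured 724, 761 and 772 FPKM at 0 d, 544, 659.9 and 641 at 3 d, 953, 868 and 915 at 6 d, then 2192, 1969 and 2100.3 at 9 d. Neither showed a low value at 3 d like that of MFGE8: SIRPA kept within 903 to 1162 FPKM through 6 d, and TIMP1 within 544 to 953 FPKM. PRSS23, a secreted serine protease, measured 277, 267 and 208 FPKM at 0 d, 16.5, 17.4 and 18 at 3 d, 406, 351 and 378 at 6 d, then 669, 737 and 753 at 9 d. Its 3 d libraries were the lowest by more than 10 times. DSEL, an epimerase-like protein of dermatan sulfate, measured 260.4, 259.6 and 252 FPKM at 0 d, 387, 380.1 and 392 at 3 d, 311, 294 and 297 at 6 d, then 696, 714 and 697 at 9 d, with the 3 d libraries highest before 9 d. MASP1 and EPAS1 complete the 8 most abundant members.

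The summed FPKM of the 93 members was 9817.6, 8917.1 and 9374.1 at 0 d, 6803.4, 7177.4 and 7395.4 at 3 d, 10798.3, 10878.6 and 10344.2 at 6 d, then 24575.9, 23767.3 and 24188.8 at 9 d. The sum was lowest at 3 d in all 3 libraries. As a share of all FPKM of a library it ran from 0.557% to 0.836% before 9 d and from 1.76% to 1.79% at 9 d. The 8 most abundant members held 78.6% to 82.8% of the sum in each library. The FPKM of all rows summed to between 1221194 and 1371794, and an FPKM alone does not give the reads behind it.

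Replicates of the members at 9 d were close, with a median coefficient of variation of 6.35%. Over all rows with a mean of at least 1 FPKM at 9 d the median was 8.36%. The choice of members favours a small spread, since the lowest 9 d library had to pass the threshold. No 9 d library carried the members alone: their highest 9 d value was in replicate 1 for 20, in replicate 2 for 37 and in replicate 3 for 36. On earlier days the members with a mean of at least 1 FPKM had a median coefficient of variation of 7.5% at 0 d, 9.88% at 3 d and 5.74% at 6 d. For all such rows these values were 8.94%, 9.59% and 8.29%. Among single members, SEMA5A, a semaphorin that guides growing axons, measured 113, 42.8 and 105 FPKM at 0 d, 35.7, 28.9 and 74.6 at 3 d, 160.0, 149 and 143 at 6 d, then 277, 264 and 284 at 9 d. ZNF395 measured 2.4, 11.5 and 4.21 FPKM at 0 d, 16.9, 18.5 and 4.45 at 3 d, 19, 8.62 and 4.33 at 6 d, then 35.4, 34 and 36.9 at 9 d. In both, libraries of the same earlier day differed by over 2 times, and these genes were picked after their values were seen.

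The rule sets no order among 0, 3 and 6 d, but it leaves out rows with a peak on any of these days, so the shares of members and of all rows below are set side by side as a description. By day means, 56 members (60.2%) were lowest before 9 d at 3 d, 28 (30.1%) were lowest at 0 d and 9 (9.68%) at 6 d. Over all rows the shares were 37.8%, 23.8% and 38.5%. The highest earlier mean was at 6 d for 50 members (53.8%), at 0 d for 29 (31.2%) and at 3 d for 14 (15.1%), against 19.0%, 41.2% and 39.8% of all rows. Before 9 d the members were most often lowest at 3 d and most often highest at 6 d, and how far the rule fixes this was not tested.

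At 3 d against 0 d, with limma on log2(FPKM + 0.1), which understates the change of genes with low values, 37 members (39.8%) fell. A call needed a log2 fold change beyond 1 in size, with p adjusted by Benjamini-Hochberg over all 15401 rows tested and under 0.05. Of all rows tested, 15.2% fell. In the other direction 10 members (10.8%) rose, against 8.06% of all rows, a share near the background, and 46 were not called. The median log2 fold change was -0.62 over the members and -0.06 over all rows. If 1 was added in place of 0.1, the calls at 3 d were 23 lower and 6 higher, and over all rows 1446 lower in place of 2344 and 738 higher in place of 1241.

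CCND1, the cyclin that drives entry into the cell cycle, had the largest fall at 3 d. It measured 85.7, 79.2 and 87.5 FPKM at 0 d, 3.94, 4.42 and 3.73 at 3 d, 47.8, 50.1 and 51.2 at 6 d, then 197, 184 and 183 at 9 d, and it fell by 4.35 on the log2 scale at 3 d (SE 0.07, limma adjusted p = 7.72e-11). The 3 d libraries lay far below those of the other days. LOC617565 measured 4.9, 6.62 and 4.35 FPKM at 0 d, 0.27, 0 and 0.59 at 3 d, 1.34, 1.77 and 1.24 at 6 d, then 12.7, 10.2 and 12.8 at 9 d and fell by 4.17 on the log2 scale at 3 d (SE 0.55, limma adjusted p = 1.17e-04). LEP, the hormone leptin, measured 2.17, 2.39 and 2.47 FPKM at 0 d, 0, 0.21 and 0 at 3 d, 9.97, 8.6 and 5.5 at 6 d, then 25.3, 16.6 and 19.6 at 9 d and fell by 4.06 on the log2 scale at 3 d (SE 0.41, limma adjusted p = 1.49e-05). It was listed at 0 in all but 1 of the 3 d libraries, so the size of its fall depends on the pseudocount.

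The largest rises at 3 d were in ALPL, CD36 and MASP1. ALPL, the tissue-nonspecific alkaline phosphatase, measured 0.68, 1.83 and 1.09 FPKM at 0 d, 11.5, 12.1 and 9.76 at 3 d, 11.4, 14.9 and 9.51 at 6 d, then 24.9, 26.1 and 24.5 at 9 d and rose by 3.20 on the log2 scale at 3 d (SE 0.28, limma adjusted p = 5.63e-06). CD36, which takes up fatty acids, measured 0.31, 0.31 and 0.3 FPKM at 0 d, 3.66, 3.1 and 3.46 at 3 d, 1.35, 2.02 and 1.94 at 6 d, then 7.7, 7.92 and 8.6 at 9 d and rose by 3.11 on the log2 scale at 3 d (SE 0.14, limma adjusted p = 3.98e-08). MASP1, a protease of the lectin pathway of complement, measured 106, 106 and 119 FPKM at 0 d, 681, 842 and 796 at 3 d, 487, 444 and 471 at 6 d, then 1639.7, 1534 and 1394 at 9 d and rose by 2.81 on the log2 scale at 3 d (SE 0.09, limma adjusted p = 3.65e-09). In CD36 and MASP1 the 3 d libraries lay above both 0 and 6 d, whereas in ALPL the 3 and 6 d libraries overlapped.

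At 6 d against 0 d, 22 members (23.7%) rose, against 3.39% of all rows, and 3 (3.23%) fell, against 7.97%. The remaining 68 were not called. Of the 22, ADGRF5 passed the filter only through 9 d, and with the filter set on the mean before 9 d, an alternative chosen after seeing the data, 21 of 90 members rose (3.34% of all rows) and 3 fell (8.06%). The median log2 fold change was 0.25 over the members and -0.15 over all rows. Rescaling the libraries by their median ratio moved the median over all rows from -0.15 to 0.01, and 26 members then rose and 2 fell, while of all rows 647 rose in place of 522 and 945 fell in place of 1227. Adding 1 in place of 0.1 left 13 members that rose and 2 that fell, and 318 and 649 of all rows. The 3 d and 6 d comparisons share the 0 d libraries, so their values are set side by side and not compared by a test.

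Behind ALPL, the largest rises at 6 d were in SPOCK1 and CSF2RB. SPOCK1, a secreted proteoglycan called testican, measured 7.97, 10.2 and 7.87 FPKM at 0 d, 18.9, 15.7 and 14.5 at 3 d, 75.2, 71 and 73.7 at 6 d, then 213, 199.98 and 229 at 9 d and rose by 3.07 on the log2 scale at 6 d (SE 0.12, limma adjusted p = 5.75e-08). CSF2RB, the shared beta chain of several cytokine receptors, measured 0.34, 0.25 and 0.27 FPKM at 0 d, 0.09, 0.08 and 0.11 at 3 d, 1.85, 2.67 and 1.79 at 6 d, then 4.65, 5.99 and 5.61 at 9 d and rose by 2.50 on the log2 scale at 6 d (SE 0.17, limma adjusted p = 2.20e-06). ALPL itself rose by 3.29 on the log2 scale at 6 d (SE 0.28, limma adjusted p = 1.16e-05). Each of these genes had all 6 d libraries above all 0 d libraries.

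The 3 members that fell at 6 d were LOC617565, SFRP1 and LOC101903858. SFRP1, a secreted antagonist of Wnt proteins, measured 8.6, 10.4 and 8.66 FPKM at 0 d, 17.6, 17.9 and 16.8 at 3 d, 2.47, 3.21 and 2.2 at 6 d, then 31.1, 31.9 and 29.6 at 9 d and fell by 1.79 on the log2 scale at 6 d (SE 0.13, limma adjusted p = 3.18e-06). Its libraries rank from 6 d through 0 d and 3 d up to 9 d with no overlap between days. LOC617565 fell by 1.79 with an adjusted p of 3.03e-02 by limma, a call that was lost with a pseudocount of 0.01 and without any 1 of the 0 or 6 d libraries. LOC101903858 fell by 1.04, a call lost with either other pseudocount, after rescaling, in a fit of only the 6 libraries compared, and without 0 d replicate 2 or 6 d replicate 1 or 2. Its log2 fold change was -0.78 without 6 d replicate 2, and without that library 1 member fell at 6 d. Of the 12 members with the highest ratios, CDH26, LOC101903858 and PTGDR fell at 3 d and FAM107A rose at 3 d, and each of these calls was lost with a pseudocount of 1.

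**Figure D3:**
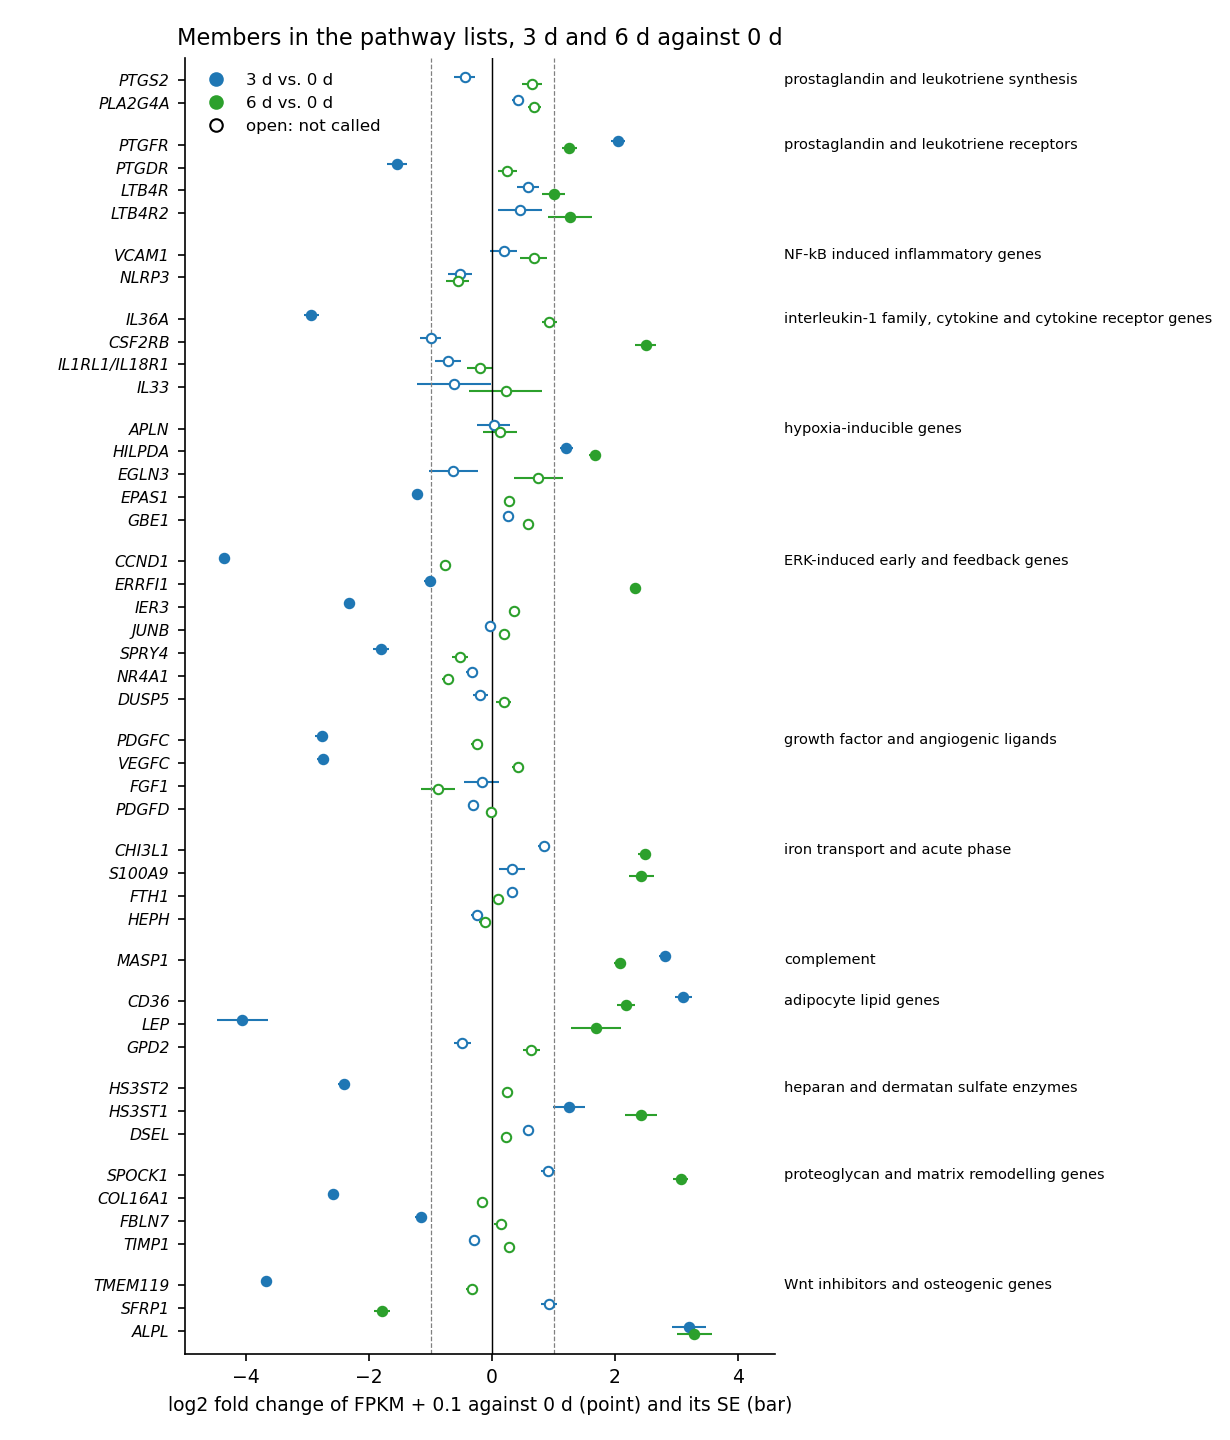
log2 fold change against 0 d, on log2(FPKM + 0.1), of the 46 members that belong to a pathway list, at 3 d (blue) and 6 d (green), each with its SE from limma. Filled points were called and open points were not, dashed lines mark log2 fold changes of -1 and 1, and each gene stands under the first list that holds it. CCND1 and LEP lie farthest to the left at 3 d, and ALPL and SPOCK1 farthest to the right at 6 d.

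Of the 93 members, 46 belong to 1 or more of 15 pathway lists and 47 to none. Among the genes of these lists that are not members, 328 could be tested at 9 d against 6 d, where 37 (11.3%) rose and 15 (4.57%) fell, against 2.55% and 1.89% of all rows. The lists were chosen with earlier results of these data known, so these shares are a description and lend the members no support. With a pseudocount of 1 the counts were 18 and 8, and over all rows 211 and 157. Of the 37 that rose from 6 to 9 d, 24 had a 0 or 3 d library at or above their lowest 9 d library, and of the 15 that fell, 12 had one at or below their highest 9 d library. The first of these counts is partly set by the rule, since a gene highest at 9 d by enough would be a member. These other genes are given with each list. The members themselves get no test in that comparison, since they were selected on it.

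The prostaglandin and leukotriene genes held 6 members, 2 enzymes and 4 receptors. PLA2G4A, the cytosolic phospholipase that frees arachidonic acid, measured 11.1, 8.8 and 10.2 FPKM at 0 d, 14.3, 14 and 12 at 3 d, 15.9, 16.9 and 15.9 at 6 d, then 46.2, 49.2 and 45 at 9 d. With PTGS2, which takes the next step, it was among the members not called at 3 or 6 d. PTGFR, the receptor for prostaglandin F, measured 1.82, 2.13 and 1.47 FPKM at 0 d, 7.15, 8.44 and 7.57 at 3 d, 4.25, 4.7 and 4.29 at 6 d, then 29.3, 32 and 28.8 at 9 d. It rose by 2.05 on the log2 scale at 3 d (SE 0.12, limma adjusted p = 3.50e-07) and had a log2 fold change of 1.26 at 6 d, also called. PTGDR went the other way at 3 d, where it fell by 1.54 on the log2 scale (SE 0.16, limma adjusted p = 2.46e-05). The receptors for leukotriene B, LTB4R and LTB4R2, measured 1.79, 1.96 and 1.83 FPKM and 1.49, 1.04 and 1.04 FPKM at 9 d. Before 9 d neither passed 0.66 FPKM in a library, and both rose at 6 d, with log2 fold changes of 1.00 and 1.27. With a pseudocount of 1 the 6 d calls of PTGFR, LTB4R and LTB4R2 and the 3 d call of PTGDR were lost, and without 0 d replicate 2, 6 d replicate 1 or 6 d replicate 2 so were those of both leukotriene receptors. The call of LTB4R was also lost without 0 d replicate 1, and that of LTB4R2 in a fit of only the 6 libraries compared.

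Of the 9 other synthesis genes tested at 9 d against 6 d, 1 was called, higher, and of the 6 other receptors 2 rose and 1 fell. PTGES, which makes prostaglandin E from the product of PTGS2, measured 22.9, 22.1 and 24.8 FPKM at 0 d, 7.5, 6.67 and 6.46 at 3 d, 3.72, 2.14 and 3.21 at 6 d, then 19.8, 18.6 and 18.3 at 9 d. Its 9 d libraries lay above those of 3 and 6 d but below those of 0 d (log2 fold change 2.64, SE 0.17, limma adjusted p = 4.33e-06). TBXA2R, the thromboxane receptor, measured 23.6, 23.9 and 24.7 FPKM at 0 d, 0.89, 1.52 and 1.65 at 3 d, 10.6, 10.1 and 9.27 at 6 d, then 23.8, 24.3 and 25.3 at 9 d. It rose from 6 to 9 d (log2 fold change 1.29, SE 0.18, limma adjusted p = 0.00069), and its 0 and 9 d libraries overlapped. PTGER3, a receptor for prostaglandin E, fell by 1.83 from FPKM of 0.31, 0.61 and 0.54 to 0.1, 0.03 and 0.06. PTGER2, another such receptor, rose but stayed at most 0.31 FPKM. Both of these calls were lost with a pseudocount of 1, and that of PTGER2 also with 0.01, in a fit of only the 6 libraries compared, and without 6 d replicate 1 or 9 d replicate 1 or 3.

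Among the NF-kB induced inflammatory genes VCAM1 and NLRP3 were members. VCAM1 was not called at 3 or 6 d, and NLRP3 was so low at 0 d that no fall could pass the threshold. Of the other 22 tested at 9 d against 6 d, 7 rose and 1 fell. CXCL5, a chemokine for neutrophils, measured 87.7, 74.7 and 76 FPKM at 0 d, 159, 136 and 152 at 3 d, 10.5, 8.02 and 10.8 at 6 d, then 46.8, 61.3 and 53.3 at 9 d. It rose from 6 to 9 d (log2 fold change 2.45, SE 0.14, limma adjusted p = 1.94e-06) but its 9 d libraries lay below those of 0 and 3 d. CXCL2, CXCL3, CXCL8, IL6, IL11 and BIRC3 also rose, with log2 fold changes from 1.15 to 1.84, but at 9 d CXCL2 and CXCL8 lay below their 0 d libraries and CXCL3 below those of 3 d. IL6 and IL11 stayed at or below 0.33 FPKM in every library, and of the 7 rises only that of CXCL5 held with a pseudocount of 1. CCL2, a chemokine for monocytes, fell by 1.39 from 24.4, 19.8 and 24.8 FPKM to 8.28, 8.55 and 9.26 FPKM.

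IL33 and a row that joins IL1RL1, its receptor, with IL18R1 were both members of the cytokine list, beside IL36A and CSF2RB. The IL1RL1;IL18R1 row measured 66.1, 60.6 and 65.3 FPKM at 0 d, 29.9, 41.3 and 48 at 3 d, 40.4, 61.5 and 68.8 at 6 d, then 130.1, 113 and 117 at 9 d. Its reads could belong to either receptor, and the 0 and 6 d libraries overlapped. IL36A, a further cytokine of the interleukin-1 family, measured 0.72, 0.64 and 0.64 FPKM at 0 d, 0, 0 and 0 at 3 d, 1.32, 1.32 and 1.44 at 6 d, then 4.28, 4.73 and 3.49 at 9 d. It was listed at 0 in all 3 d libraries and in none of the others, and it was called lower at 3 d, though not with a pseudocount of 1. Of the 20 other genes of the list tested at 9 d against 6 d, 2 rose and 1 fell. IL15 measured 0.59, 0.64 and 0.63 FPKM at 0 d, 0, 0 and 0 at 3 d, 0.12, 0.09 and 0.13 at 6 d, then 0.42, 0.25 and 0.54 at 9 d. TNFRSF1B, a receptor for tumor necrosis factor, measured 71.3, 65.6 and 72.2 FPKM at 0 d, 96.2, 104 and 94.3 at 3 d, 8.66, 7.28 and 9.08 at 6 d, then 18.8, 17.4 and 18 at 9 d. They rose from 6 to 9 d by 1.2 and 1.11, but the 9 d libraries lay below those of 0 d in both and also below those of 3 d in TNFRSF1B. IL1R2, a decoy receptor for interleukin-1, fell by 1.15 from 0.23, 0.15 and 0.17 FPKM. The calls of IL15 and IL1R2 were lost with a pseudocount of 1.

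The hypoxia-inducible list held 5 members. EPAS1, itself a subunit of a hypoxia-inducible factor, measured 629.9, 652 and 609 FPKM at 0 d, 254, 280.3 and 277 at 3 d, 771, 754 and 760.1 at 6 d, then 1435, 1295 and 1662 at 9 d and fell by 1.22 on the log2 scale at 3 d (SE 0.08, limma adjusted p = 7.13e-07). EGLN3, a prolyl hydroxylase that marks such factors for breakdown, measured 1.75, 5.32 and 4.99 FPKM at 0 d, 2.05, 2.31 and 2.58 at 3 d, 8.35, 7.32 and 3.79 at 6 d, then 26.2, 25.2 and 26.4 at 9 d. Its replicates at 0 d ran from 1.75 to 5.32 FPKM, and it was not called. The row that joins HILPDA, which slows the breakdown of stored fat, with FAM71F2 measured 3.68, 3.99 and 3.56 FPKM at 0 d, 8.02, 8.98 and 9.44 at 3 d, 13.2, 12 and 11.4 at 6 d, then 24.4, 21.2 and 25.1 at 9 d. It rose by 1.21 at 3 d and by 1.68 at 6 d, so that its days rank in order of time. GBE1, the branching enzyme of glycogen, measured 98.5, 96.5 and 91.2 FPKM at 0 d and 232, 235 and 231 FPKM at 9 d, and it was not called on the earlier days. APLN is the remaining member of the list.

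Of the 29 other hypoxia-inducible genes, 2 were called from 6 to 9 d, both higher, and the median log2 fold change was -0.05. One of them, a row joining CTSK with ARNT, measured 331, 317 and 339 FPKM at 0 d, 94.8, 89.5 and 94.5 at 3 d, 129.7, 133 and 143 at 6 d, then 357, 339 and 361 at 9 d. It rose from 6 to 9 d (log2 fold change 1.38, SE 0.05, limma adjusted p = 2.74e-07) to just above its 0 d libraries, and its reads could belong to either gene. CA12, a carbonic anhydrase, rose by 1.21 to 2.12, 1.15 and 2.49 FPKM, a call lost with either other pseudocount, in a fit of only the 6 libraries compared, and without 6 d replicate 2 or 3 or 9 d replicate 1 or 3.

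The ERK-induced list held 7 members among its 34 genes tested, the largest number of any list but not the largest share. The prostaglandin and leukotriene receptor list held 4 among 10, and of all 15401 rows tested 93 were members. The lists differ in size and were chosen with earlier results known, so these counts are a description. JUNB, a subunit of the AP-1 factor, measured 16.5, 16.6 and 18.4 FPKM at 0 d, 15.6, 18 and 16.9 at 3 d, 18.8, 20.2 and 19.6 at 6 d, then 50.0, 49.2 and 52.8 at 9 d. DUSP5, a phosphatase that acts on ERK in the nucleus, measured 37.2, 32.7 and 34.6 FPKM at 0 d, 27.2, 30.9 and 33.7 at 3 d, 35, 45.3 and 39.5 at 6 d, then 109.6, 123 and 95.2 at 9 d. NR4A1, a nuclear receptor induced at once by many stimuli, measured 62.1, 62.7 and 61.2 FPKM at 0 d, 45.1, 59.4 and 45 at 3 d, 38.4, 35.8 and 38.8 at 6 d, then 133, 141 and 128 at 9 d. These genes were not called at 3 or 6 d, and their libraries of 0, 3 and 6 d stayed within 2 times of each other. IER3, SPRY4 and CCND1 had their lowest libraries at 3 d instead. IER3, an early response gene, measured 59.2, 51 and 56.6 FPKM at 0 d, 10.4, 11 and 11.8 at 3 d, 66.2, 75.8 and 72.2 at 6 d, then 171, 156 and 149 at 9 d and fell by 2.32 on the log2 scale at 3 d (SE 0.08, limma adjusted p = 7.65e-09). SPRY4, a Sprouty inhibitor of the pathway, measured 14.2, 14.3 and 13.7 FPKM at 0 d, 4.45, 3.24 and 4.24 at 3 d, 8.48, 9.58 and 11.4 at 6 d, then 31.4, 30.6 and 27.7 at 9 d and fell by 1.81 on the log2 scale at 3 d (SE 0.13, limma adjusted p = 1.59e-06). Their 6 d libraries were back near those of 0 d in IER3 and between those of 0 and 3 d in SPRY4. ERRFI1, which blocks the EGF receptor, measured 27.2, 31.5 and 26.7 FPKM at 0 d, 13.6, 13.5 and 15.2 at 3 d, 136, 155 and 139 at 6 d, then 278, 256 and 252 at 9 d. It rose by 2.33 at 6 d, and its call at 3 d, with a log2 fold change of -1.01, was lost with a pseudocount of 1, after rescaling, and without 0 d replicate 2 or 3 d replicate 1 or 2.

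Of the 27 other ERK-induced genes tested at 9 d against 6 d, 5 rose and 1 fell. DUSP6, the cytoplasmic phosphatase for ERK, measured 12.5, 13.4 and 34 FPKM at 0 d, 11.3, 12.6 and 8.82 at 3 d, 4.62, 23.5 and 1.46 at 6 d, then 118, 44.9 and 116 at 9 d. It rose (log2 fold change 3.93, SE 0.85, limma adjusted p = 0.0086), with 6 d replicates that differed by more than 10 times, and its call was lost in a fit of only the 6 libraries compared. NR4A3, FOSL1, EGR3 and EGR2 rose by 2.19, 1.94, 1.55 and 1.03 on the log2 scale, the 9 d libraries of NR4A3 and EGR3 overlapped those of 3 d, and the call of EGR2 was lost with a pseudocount of 1 and without 6 d replicate 1 or 3. JUN, a partner of JUNB, fell by 1.59 from 195, 204 and 193 FPKM to 62.8, 63.9 and 69 FPKM, below all of its 0, 3 and 6 d libraries.

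Of the growth factors, PDGFC, PDGFD, VEGFC, FGF1 and APLN were members. PDGFC, a ligand of PDGF receptors, measured 50.5, 52.7 and 54.2 FPKM at 0 d, 8.02, 6.32 and 8.62 at 3 d, 43.8, 45 and 44.5 at 6 d, then 108, 112 and 109 at 9 d and fell by 2.77 on the log2 scale at 3 d (SE 0.10, limma adjusted p = 6.92e-09). VEGFC, the growth factor of lymphatic vessels, measured 47.2, 54.4 and 53.2 FPKM at 0 d, 6.88, 8.54 and 7.43 at 3 d, 65.4, 68.6 and 72.6 at 6 d, then 121, 126 and 127 at 9 d and fell by 2.75 on the log2 scale at 3 d (SE 0.09, limma adjusted p = 3.28e-09). At 3 d both lay several times below every other library, and neither was called at 6 d. PDGFD measured 30.1, 29.1 and 29.6 FPKM at 0 d, 23.4, 23.3 and 24.8 at 3 d, 27.8, 29.2 and 30.4 at 6 d, then 58.9, 60.9 and 61.1 at 9 d and showed no such low day. Of the 23 other ligands tested at 9 d against 6 d, 1 rose and 2 fell, NRG1 by 1.64 and PGF by 1.10. The calls of NRG1 and PGF were lost with a pseudocount of 1. APELA, the other ligand of the apelin receptor, was also a member, with 1.13 to 1.68 FPKM at 9 d and at most 0.68 FPKM before. It belongs to no list and was picked after its values were seen. APELA was called lower at 3 d, with a log2 fold change of -1.23 (SE 0.30, limma adjusted p = 5.65e-03). That call was lost with a pseudocount of 1 and without 3 d replicate 1.

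Iron and acute phase genes held 4 members. FTH1, the heavy chain of the iron store ferritin, measured 79.3, 78.1 and 87.7 FPKM at 0 d, 101, 107 and 99.8 at 3 d, 87.8, 87.3 and 87.2 at 6 d, then 203, 209 and 209 at 9 d. HEPH, an oxidase for exported iron, measured 1.73, 1.74 and 1.75 FPKM at 0 d, 1.33, 1.61 and 1.43 at 3 d, 1.52, 1.65 and 1.6 at 6 d, then 2.65, 2.79 and 2.67 at 9 d. In both the earlier days differed by less than 2 times and no call was made. CHI3L1, a chitinase-like secreted protein, measured 1.1, 1.02 and 1.11 FPKM at 0 d, 2.25, 1.82 and 2.03 at 3 d, 6.18, 6.32 and 6.9 at 6 d, then 16.1, 17.7 and 19.3 at 9 d and rose by 2.48 on the log2 scale at 6 d (SE 0.10, limma adjusted p = 6.44e-08). S100A9, a subunit of calprotectin, measured 0, 0 and 0 FPKM at 0 d, 0, 0.08 and 0.01 at 3 d, 0.53, 0.43 and 0.37 at 6 d, then 1.74, 1.8 and 1.68 at 9 d. It was listed at 0 in all 0 d libraries, so no fold is given against that day, although limma called it higher at 6 d, a call lost with a pseudocount of 1. Of the 17 other genes, 2 were called from 6 to 9 d, both higher. The row joining TFRC, the transferrin receptor, with ZDHHC19 measured 81.6, 67.4 and 75.3 FPKM at 0 d, 65.7, 60.1 and 64 at 3 d, 42.2, 39.7 and 22.8 at 6 d, then 78.6, 83.9 and 80.9 at 9 d. It rose from 6 to 9 d (log2 fold change 1.26, SE 0.19, limma adjusted p = 0.00129), a call lost without 6 d replicate 3, and its 0 and 9 d libraries overlapped. S100A12 was at most 0.36 FPKM, and its call was lost with either other pseudocount, in a block on replicate number, in a fit of only the 6 libraries compared and without any 1 of these except 6 d replicate 3.

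MASP1 was the member of the complement list, and class I antigen presentation and interferon-stimulated genes held 0 members. Of the 15 other complement genes, 4 were called from 6 to 9 d, all higher. C1S, a protease of the classical pathway, measured 57.1, 55.2 and 59.7 FPKM at 0 d, 43.3, 48.6 and 45 at 3 d, 19.2, 16.7 and 19.6 at 6 d, then 45.4, 42.9 and 53.6 at 9 d (log2 fold change 1.35, SE 0.09, limma adjusted p = 9.26e-06 from 6 to 9 d). C3 rose by 1.37 to 0.72, 0.91 and 0.93 FPKM, and CFI and a row joining C1R with LOC112446756 rose by 1.36 and 1.03. Apart from C3, these genes had 0 d libraries at or above the 9 d libraries, and the calls of C3, CFI and C1R were lost with a pseudocount of 1. The call of CFI was also lost in a fit of only the 6 libraries compared and without 6 d replicate 1 or 2 or 9 d replicate 1, and that of C1R without 9 d replicate 3. In the antigen list 1 of 17 genes rose, PSMB8, a subunit of the immunoproteasome, by 1.69. In the interferon list 3 of 26 rose: IRF1 by 1.63, IRF7 by 1.53 and IFI44L by 1.27. At 9 d PSMB8 and IRF7 lay below all of their 0 d libraries, and IRF1 and IFI44L overlapped theirs. The calls of PSMB8, IRF7 and IFI44L were lost with a pseudocount of 1, and that of IFI44L without 6 d replicate 2.

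Among adipocyte lipid genes CD36, LEP, HILPDA and GPD2 were members. LEP rose at 6 d by 1.69, a call lost with a pseudocount of 0.01, and CD36 by 2.18. GPD2, the mitochondrial glycerophosphate dehydrogenase, measured 7.69, 5.39 and 7.2 FPKM at 0 d, 4.13, 4.49 and 5.79 at 3 d, 10.5, 10.4 and 10.6 at 6 d, then 20.2, 20.8 and 20.4 at 9 d and was not called. Of the 37 other lipid genes tested at 9 d against 6 d, 1 rose and 2 fell, with a median log2 fold change of -0.17. FABP4, the fatty acid binding protein of fat cells, measured 3.36, 3.02 and 3.52 FPKM at 0 d, 94.7, 86.2 and 92.3 at 3 d, 24.5, 26.4 and 28.4 at 6 d, then 7.59, 8.84 and 10.8 at 9 d. It was highest at 3 d and fell from 6 to 9 d (log2 fold change -1.54, SE 0.12, limma adjusted p = 1.8e-05). LPL, which frees fatty acids from blood lipoproteins, measured 4.46, 4.43 and 4.7 FPKM at 0 d, 12.5, 9.74 and 9.55 at 3 d, 2.81, 3.09 and 3.19 at 6 d, then 5.96, 5.07 and 7.98 at 9 d. It rose from 6 to 9 d by 1.02, a call lost with a pseudocount of 1 and without 6 d replicate 1 or 9 d replicate 3. PCK1 fell by 1.34 from at most 0.19 FPKM, and not with a pseudocount of 1.

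The enzymes of heparan and dermatan sulfate held 3 members. HS3ST1 and HS3ST2 add a rare sulfate group to heparan sulfate. HS3ST1 measured 0.56, 0.28 and 0.6 FPKM at 0 d, from 1.18 to 1.26 at 3 d, 2.94, 2.03 and 4.03 at 6 d, then 8.96, 9.77 and 8.72 at 9 d. HS3ST2 measured 13.5, 12.1 and 11.6 FPKM at 0 d, 2.05, 2.23 and 2.5 at 3 d, 14.7, 15.4 and 14.2 at 6 d, then 27.9, 28 and 25.1 at 9 d. The first was lowest at 0 d and was called higher at both 3 and 6 d, with a rise of 2.42 at 6 d, and its 3 d call was lost with a pseudocount of 1 and without 0 d replicate 2. The second was lowest at 3 d, where it fell by 2.41 on the log2 scale (SE 0.09, limma adjusted p = 1.05e-08). DSEL was not called. Of the 28 other genes 1 was called from 6 to 9 d: HS6ST2 fell to at most 0.33 FPKM, a call lost with a pseudocount of 1 and without 9 d replicate 3.

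Among matrix genes TIMP1, SPOCK1, COL16A1 and FBLN7 were members. COL16A1, a collagen, measured 55, 54.2 and 55.7 FPKM at 0 d, 8.97, 9.26 and 9.04 at 3 d, 49.4, 47.7 and 50.7 at 6 d, then 94.5, 85 and 85.8 at 9 d and fell by 2.58 on the log2 scale at 3 d (SE 0.06, limma adjusted p = 2.51e-10). FBLN7, a fibulin, measured 5.85, 7.33 and 6.34 FPKM at 0 d, 2.62, 2.84 and 3.11 at 3 d, 7.31, 7.51 and 6.7 at 6 d, then 17.8, 15.8 and 15.8 at 9 d and fell by 1.16 on the log2 scale at 3 d (SE 0.10, limma adjusted p = 6.16e-06). Both were lowest at 3 d in all libraries, and their 0 and 6 d libraries lay within 1.5 times of each other. The call of FBLN7 was lost with a pseudocount of 1. Of the 36 other genes, 3 rose from 6 to 9 d and 2 fell. FMOD, fibromodulin, measured 1632, 1608 and 1749 FPKM at 0 d, 239, 260.0 and 250.4 at 3 d, 439, 390.1 and 435 at 6 d, then 1333, 1298 and 1459 at 9 d (log2 fold change 1.69, SE 0.07, limma adjusted p = 2.74e-07 at 9 d against 6 d). POSTN rose by 1.42, to below its 0 d libraries, and GPC6 by 1.3, and the call of GPC6 was lost without 6 d replicate 2 or 3 or 9 d replicate 2 or 3. ACAN, the proteoglycan aggrecan, fell by 2.40 from 10.8, 13.8 and 14.7 FPKM to 2.29, 2.83 and 2.09 FPKM, and ADAMTS9, which cuts it, fell by 1.46. The call of ACAN was lost with a pseudocount of 0.01.

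Wnt inhibitors and osteogenic genes held SFRP1, TMEM119 and ALPL. TMEM119, a membrane protein that promotes bone formation, measured 11, 10.1 and 11.7 FPKM at 0 d, 0.66, 0.8 and 0.83 at 3 d, 8.97, 8.58 and 8.36 at 6 d, then 22.5, 21.3 and 22.7 at 9 d and fell by 3.67 on the log2 scale at 3 d (SE 0.09, limma adjusted p = 6.66e-10). Of the 17 other genes tested at 9 d against 6 d, 3 rose and 4 fell. GREM1, an antagonist of bone morphogenetic proteins, measured 30.3, 25.6 and 26.6 FPKM at 0 d, 0.25, 0.27 and 0.25 at 3 d, 4.92, 4.24 and 2.07 at 6 d, then 36.8, 44.5 and 47 at 9 d and rose (log2 fold change 3.56, SE 0.26, limma adjusted p = 1.16e-05). Its 3 d libraries were the lowest. SFRP4, a relative of SFRP1, measured 574, 592 and 647 FPKM at 0 d, 6517, 7225 and 7267 at 3 d, 1794, 1718 and 1621 at 6 d, then 3688, 3748 and 3878 at 9 d. It rose by 1.14 from 6 to 9 d and was highest at 3 d. SFRP5 fell by 3.30 and DKK1 by 2.66 from 6 to 9 d. In contrast to SFRP1, which reached 29.6 to 31.9 FPKM, these inhibitors ended at 0.62 FPKM or less in each 9 d library. NOTUM and BMP2 fell by 1.14 and 1.10, calls lost with a pseudocount of 1 and, in turn, without 9 d replicate 2 and without 6 d replicate 2. SPP1 rose by 1.35, a call lost in a block on replicate number and without 6 d replicate 1 or 2 or 9 d replicate 1 or 2. In a fit of only the 6 libraries compared the calls of NOTUM and SPP1 were lost.

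**Figure D4:**
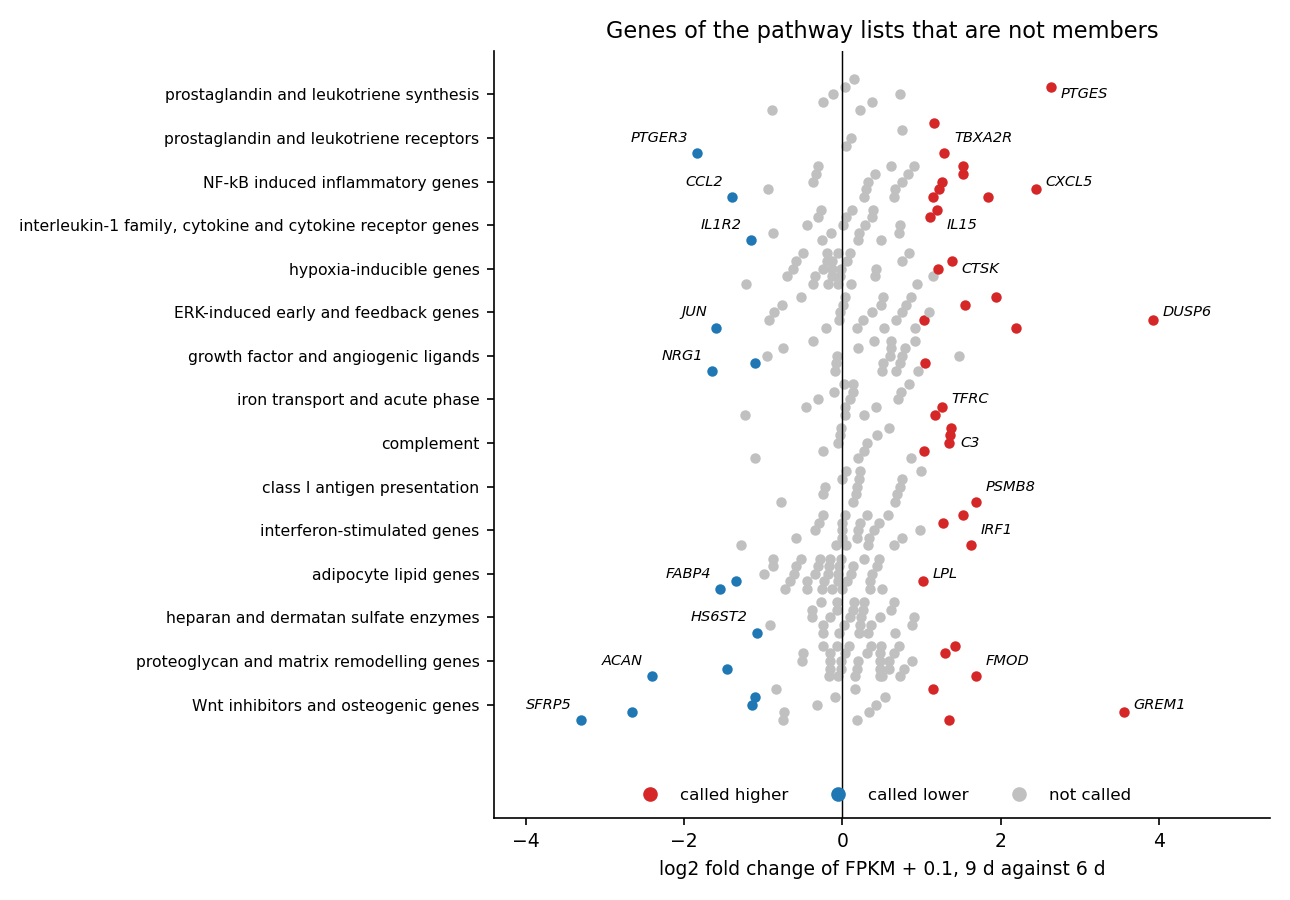
log2 fold change at 9 d against 6 d, on log2(FPKM + 0.1), of the 328 genes of the 15 pathway lists that are not members. Each point is a gene, red if called higher (37), blue if called lower (15) and grey if not called, and names mark the largest called rises and falls in the lists. The medians of the lists run from -0.17 for adipocyte lipid genes to 0.66 for NF-kB induced genes. Growth factor ligands have a median of 0.52 and ERK-induced genes 0.49, and the Wnt inhibitor list spans from SFRP5 to GREM1.

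The 47 members in no list included further receptors and membrane proteins. TSPAN13 and CD9 are tetraspanins, which organise membrane proteins. TSPAN13 measured 1.85, 1.78 and 1.69 FPKM at 0 d, 2.37, 2.2 and 2.44 at 3 d, 5.27, 6.49 and 5.63 at 6 d, then 20.7, 23.1 and 21.7 at 9 d. CD9 measured 8.39, 7.81 and 9.15 FPKM at 0 d, 2.89, 2.76 and 2.92 at 3 d, 7.17, 6.65 and 7.13 at 6 d, then 16.9, 18.2 and 18.8 at 9 d. They differed in course, TSPAN13 being lowest at 0 and 3 d and CD9 at 3 d. HTR2A, a serotonin receptor, measured 1.32, 1.32 and 1.9 FPKM at 0 d, 2.39, 2.84 and 3.19 at 3 d, 7.35, 7.89 and 7.32 at 6 d, then 15.9, 17.4 and 16 at 9 d. HCRTR1, an orexin receptor, measured 25.1, 24.1 and 25 FPKM at 0 d, 2.64, 3.84 and 2.31 at 3 d, 15.7, 15.9 and 15.2 at 6 d, then 43.6, 46.4 and 41.2 at 9 d. HTR2A was called higher at 6 d, by 2.26, and HCRTR1 lower at 3 d, where it fell by 3.07 on the log2 scale (SE 0.15, limma adjusted p = 6.74e-08). PDPN, podoplanin, a mucin-like protein of stromal cells, measured 243, 228 and 225 FPKM at 0 d, 266, 284 and 283 at 3 d, 197, 211 and 209 at 6 d, then 569.8, 589 and 599.8 at 9 d, with 6 d lowest and no call. These genes and those that follow in no list were picked after their values were seen.

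Others act inside the cell on signals. PDE3A, which breaks down cyclic AMP, measured 12.6, 12.5 and 10.8 FPKM at 0 d, 3.63, 3.7 and 4.12 at 3 d, 13.4, 12.3 and 13.2 at 6 d, then 36, 32.8 and 37.1 at 9 d and fell by 1.62 on the log2 scale at 3 d (SE 0.09, limma adjusted p = 1.27e-07). RGS4, which shortens G protein signals, measured 2.63, 2.24 and 1.85 FPKM at 0 d, 0.16, 0.13 and 0.11 at 3 d, 1.78, 0.58 and 1.56 at 6 d, then 8.25, 9.66 and 9.56 at 9 d and fell by 3.32 on the log2 scale at 3 d (SE 0.33, limma adjusted p = 1.27e-05). In both the 3 d libraries lay below all others. SOCS5, a suppressor of cytokine signals, measured 115, 106 and 112 FPKM at 0 d, 19.9, 36.3 and 36.9 at 3 d, 111, 118 and 120.5 at 6 d, then 217, 229.8 and 221 at 9 d. RIPK3, a kinase of necroptosis, measured 2.62, 2.42 and 3.04 FPKM at 0 d, 1.03, 0.9 and 0.99 at 3 d, 2.9, 2.68 and 2.4 at 6 d, then 4.99, 6.02 and 5.31 at 9 d. PTPRE, a tyrosine phosphatase, measured 107, 97.4 and 83.2 FPKM at 0 d, 23, 25.1 and 24.8 at 3 d, 91.7, 70.4 and 76.4 at 6 d, then 185, 209 and 162 at 9 d. These genes too were called lower at 3 d and not called at 6 d, and their 9 d libraries stood above the 0 and 6 d libraries by less than 3 times. The call of RIPK3 was lost with a pseudocount of 1. CA4, a membrane carbonic anhydrase, measured 0.21, 0.21 and 0.16 FPKM at 0 d, 0.05, 0 and 0 at 3 d, 1.11, 1.07 and 1.3 at 6 d, then 4.64, 4.12 and 4.73 at 9 d and was called lower at 3 d and higher at 6 d, both calls being lost with a pseudocount of 1.

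Before 9 d, 11 members had at least 1 library listed at 0 at 3 d, 3 at 0 d and 3 at 6 d, and at 9 d 0 members did. S100A9 was listed at 0 in all libraries of 0 d and IL36A in all of 3 d, and on 6 d 0 members were. IFITM5 had the lowest mean at 9 d, 1.18 FPKM, and was not called at 3 or 6 d.

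The remaining members had ratios from 1.52 to 2.73 and means at 9 d from 1.23 FPKM (RASGRP2) to 169.8 FPKM (CCDC85B). Of these, STAC, LOC521224, GSAP, PLA2R1, CFAP47, RASGRP2, CCDC85B, ANO1 and NCKAP5 were called lower at 3 d, and LOC104971683, LOC112446369 and CPZ, a carboxypeptidase, were called higher. CPZ, ARRDC4 and the row that joins GCNT2 with LOC520336, LOC100848875 and LOC112443869 were called higher at 6 d. ZFP36L2, LOC781022, NABP1, RHBDL1 and LOC112447294 were called on neither day. With a pseudocount of 1 the 3 d calls of LOC521224, GSAP, CFAP47, RASGRP2, ANO1, LOC112446369 and CPZ and the 6 d calls of CPZ and the GCNT2 row were lost. Without 0 d replicate 3 the 3 d call of CPZ and that of the GCNT2 row were lost, and without 0 d replicate 2 or 3 d replicate 1 that of LOC521224, as also after rescaling.

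The sample labels call the cells intramuscular adipocytes, the paper uses that name and preadipocytes, and the members were read beside markers of cell types. Of 11 fibroblast and preadipocyte markers 10 were at least 1 FPKM in all 12 libraries, with COL3A1 the most abundant, and CD34 was under 1 FPKM throughout. In FPKM their sum was 127200 to 134300 before induction, 171900 to 180200 on day 3, 144200 to 148800 on day 6 and 225900 to 239500 on day 9. Without COL3A1 it was 24400 to 25400, 48800 to 51600, 48900 to 51200 and 62500 to 65300 FPKM. Both sums were highest at 9 d, as were the means of 5 of the 11 markers, while PDGFRA and THY1 were highest at 3 d. Of 11 mature adipocyte markers 3 were at least 1 FPKM in all libraries, PLIN1 being the most abundant, 4 (CIDEC, GPD1, ADRB3 and RETN) were under 1 FPKM in all, and RETN was listed at 0. In FPKM their sum was 31.3 to 40.6 before induction, 151 to 157 on day 3, 69.4 to 80.0 on day 6 and 61.5 to 78.9 on day 9. FABP4 alone gave 86.2 to 94.7 FPKM of the sum on day 3 and 7.59 to 10.8 FPKM on day 9. By means, 6 of these markers were highest on day 3 and 3 on day 9. LEP was the 1 member among them, and ADIPOQ, which defines mature fat cells, was at most 1.64 FPKM.

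Several members, such as VCAM1, NLRP3, ADGRF5, CSF2RB and S100A9, are best known from endothelial cells or leukocytes. Of 12 endothelial markers 10 were under 1 FPKM in all 12 libraries, PLVAP was listed at 0, and the most abundant was VWF. Their sum was 3.32 to 3.95 FPKM at 0 d, 4.04 to 4.38 FPKM at 3 d, 2.78 to 3.09 FPKM at 6 d and 3.12 to 3.92 FPKM at 9 d. Of 13 leukocyte and macrophage markers 11 were under 1 FPKM in all libraries, the most abundant was CD14, and PTPRC, ITGAM and TYROBP were listed at 0. Their sum was 1.22 to 2.22, 5.42 to 6.07, 2.54 to 5.55 and 3.49 to 4.61 FPKM on the 4 days. Neither sum was highest at 9 d. Of the endothelial markers, VWF and ERG had their highest mean at 9 d, while 4 had it at 0 d, 3 at 3 d and 2 at 6 d. ERG measured 0.33, 0.3 and 0.39 FPKM at 9 d and at most 0.12 FPKM before.

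Of the 12 skeletal muscle markers found, 10 were at least 1 FPKM in all libraries, led by MYMK, with sums of 1711 to 2351 FPKM at 0 d, 600.5 to 696 FPKM at 3 d, 679.9 to 733 FPKM at 6 d and 607 to 683 FPKM at 9 d. Smooth muscle and pericyte markers (9, led by ACTA2, with RGS5 under 1 FPKM) summed to 1951 to 2089, 617 to 713, 1716 to 1842 and 730.0 to 825 FPKM. Without ACTA2 they summed to 303 to 313, 590 to 684, 202 to 213 and 162 to 196 FPKM. The skeletal muscle sum was highest at 0 d, and the smooth muscle sum was highest at 0 d with ACTA2 and at 3 d without it. Of 7 epithelial markers 6 were under 1 FPKM in all libraries, EPCAM, KRT8, KRT14 and KRT5 were listed at 0, CDH1 led, and the sum was 8.48 to 9.70, 5.05 to 5.61, 2.51 to 2.89 and 3.64 to 3.85 FPKM. Of 6 Schwann and neural markers 4 were under 1 FPKM, NCAM1 led, and the sum was 216 to 258, 69.4 to 122, 228 to 315 and 98.8 to 121 FPKM. Without NCAM1 that sum was 4.68 to 5.69, 10.3 to 11.9, 3.93 to 4.25 and 3.15 to 3.31 FPKM, highest at 3 d. The part of these markers in the values of the members was not tested.

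**Figure D5:**
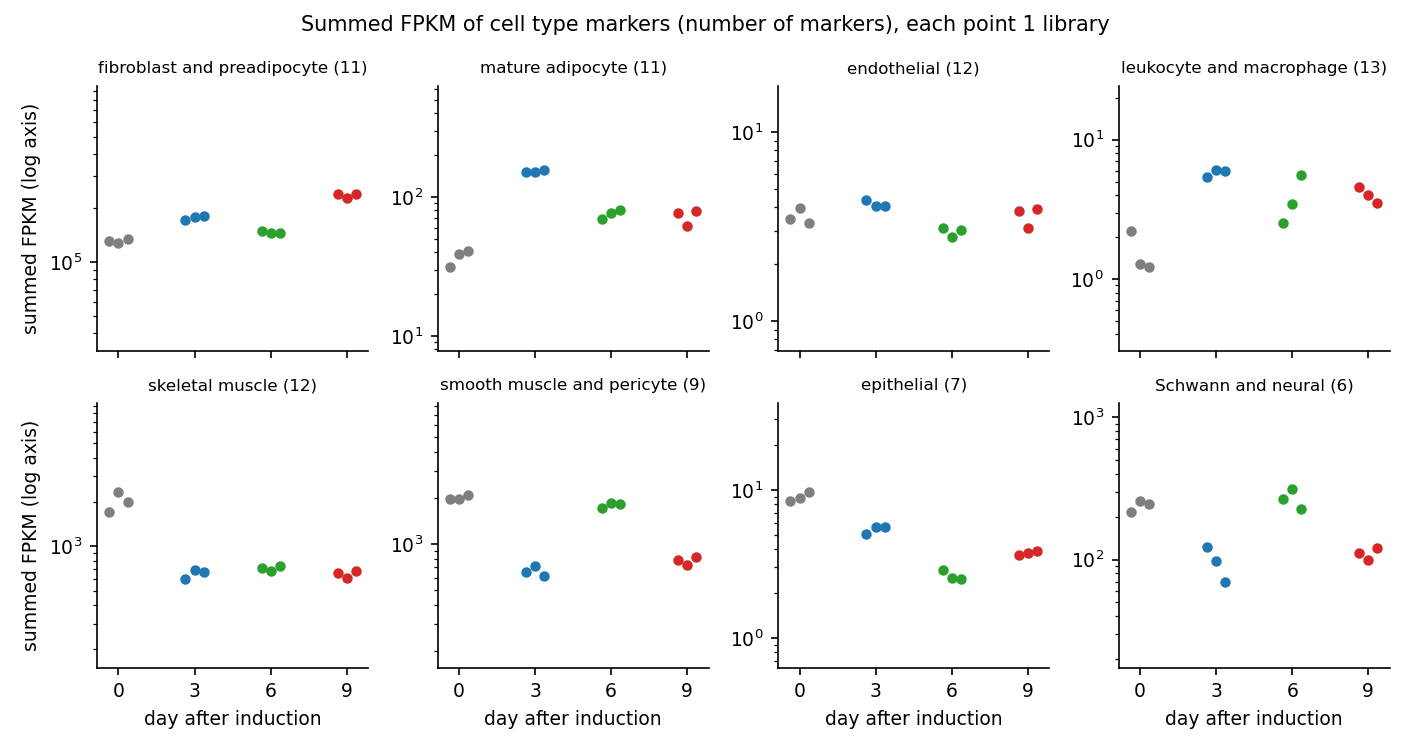
Summed FPKM of 8 lists of cell type markers by day, on log axes, with 1 point for each library and the number of markers in the title of each panel. The sum of fibroblast and preadipocyte markers is highest at 9 d. Those of endothelial, leukocyte and mature adipocyte markers have their highest library at 3 d.

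Members also lay beside each other in the genome. With genes of the table ordered along the chromosomes of the RefSeq annotation, 90 members and 26703 rows could be placed. There were 5 pairs of members with no other placed row between them: LTB4R with LTB4R2, LOC404105 with LOC101903858, PTGS2 with PLA2G4A, the NCF4;LOC101906435 row with CSF2RB, and APLN with XPNPEP2. Rows that could not be placed may lie between the genes of a pair. These pairs hold 10 of the 90 members placed (11.1%), while 169 of the 26613 other rows placed (0.635%) lie next to a member. Members are 0.337% of the rows placed. The annotated spans overlap in 0 of the pairs. XPNPEP2 was called higher at 6 d, though not with a pseudocount of 1. The NCF4 row measured 0.36, 0.28 and 0.3 FPKM at 0 d, 0.09, 0.25 and 0.18 at 3 d, 0.75, 0.68 and 0.49 at 6 d, then 3.23, 3.57 and 2.72 at 9 d, and like CSF2RB it had its lowest mean at 3 d.

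Circular RNAs, closed loops formed when the end of an exon is spliced back to an earlier start, were counted in the same libraries and were not used to choose the members. A library held 5358 to 10729 back-spliced reads, and the 9 d libraries, with 9726, 9686 and 10729, held the most. Of 14070 circRNAs, 78 come from 26 loci of 25 members. Counts were low, and 11 of the 78, from 7 loci, reached the 5 counts over 12 libraries needed for the test, among 2828 circRNAs tested. At 9 d against the mean of 0, 3 and 6 d, edgeR called 1 of these 11, and it was higher, while of all circRNAs tested 11 (0.389%) were higher and 1 (0.0354%) lower. At an unadjusted p under 0.05 by edgeR, 1 of the 11 was higher, while of the 2828 239 were higher and 30 lower. The median log2 fold change was 0.33 over all circRNAs tested and 0.87 over the 11. DESeq2 called 0 of the 11 and had 0 of the 11 at an unadjusted p under 0.05, against 3 of the 2828.

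The circRNA called comes from a single exon of TIMP1. Its counts were 0, 224 and 0 at 0 d, 109, 0 and 0 at 3 d, 223, 219 and 260 at 6 d, then 593, 585 and 749 at 9 d. It was at 0 in 4 of the 6 libraries of 0 and 3 d, was present in all libraries of 6 d and was highest in those of 9 d. With 2962 reads it ranked 2 among all circRNAs of the table. Per 10000 back-spliced reads it held 637 ± 52.8 (SD, n = 3) at 9 d and 176 ± 180 (SD, n = 9) before. The lowest 9 d library held 604 per 10000 and the highest earlier one 409.

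edgeR gave this circRNA a log2 fold change of 2.58 with an adjusted p of 2.93e-35, although its counts ran from 0 to 224 within 0 d. With a filter of 20 counts the adjusted p was 0.654, and DESeq2 gave a log2 fold change of 2.62 and no adjusted p. Without 0 d replicate 2 the log2 fold change was 5.72, and without 3 d replicate 1 it was 5.30. Of the 10 circRNAs that reached 100 reads in a library, 4 had 0 reads in another library of the same day. The linear mRNA of TIMP1 had no such gaps, with 724, 761 and 772 FPKM at 0 d and 544, 659.9 and 641 FPKM at 3 d.

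All other circRNAs of member loci together held 12 to 35 reads per library, or 0.181% to 0.361% of its back-spliced reads. The most counted of them, a circRNA of IL1RL1, had 64 reads over the 12 libraries, and the next, of PDE3A, had 18. Neither was called.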

How the data were processed

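Gene values are the FPKM the authors deposited for 12 libraries of 3 replicates a day, made by trimming reads, mapping them with HISAT2 and quantifying with StringTie. Circular RNA values are the deposited counts of back-spliced reads, called by the authors with CIRCExplorer2 and CIRI. The processing notes name a mouse genome build, and the paper names the bovine ARS-UCD1.2. FPKM hold no read counts, so limma 3.58.1, with its variance trend, on log2(FPKM + 0.1) took the place of the authors' edgeR. Rows with a mean of at least 0.1 FPKM were tested with 1 mean a day, and p-values were adjusted by Benjamini-Hochberg. Counts were tested with edgeR 4.0.16 (TMM, quasi-likelihood) and, as an alternative, DESeq2 1.42.0, with R 4.3.3. Tables and figures used Python 3.11.15, pandas 2.3.3, NumPy 2.4.6, SciPy 1.17.1 and Matplotlib 3.10.9. The fits were tested on simulated data.

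The day in a sample label set the group of its library. Genes were matched by symbol, and gene order came from the RefSeq table of ARS-UCD2.0, used for neighbours only. The members and the gene lists were chosen with earlier results of these data known. Named are the 12 members of highest ratio, the 8 most abundant, the members of a pathway list, the 3 rows on each side of the threshold, the 3 largest rises and falls on each day, neighbouring members, circRNAs called or most counted, and in each list the called genes other than members. A name outside this rule is marked where it stands, and 2 genes of the lists stay in the counts and sums but are not reported here. Alternatives were other pseudocounts, filters, thresholds of the rule, rescaled FPKM, only the 6 libraries compared, a block on replicate number and leaving out each library. The 12 columns of scaled circRNA signal and the 2 tables of lncRNAs and miRNAs were not used here.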

Additional observations from a re-analysis of the deposited data

How the results depend on the processing

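Members numbered 172 with a minimum ratio of 5 to 4 in place of 1.5, 43 with 2, 20 with 3 and 218 by the mean of the 3 libraries of a day, and 94 to 111 without 1 library. With a pseudocount of 1, members called were 6 higher and 23 lower at 3 d (all genes 738 and 1446) and 13 higher at 6 d (all genes 318 and 649 lower). From 6 to 9 d, other pathway genes were then 18 higher and 8 lower (all genes 211 and 157). With a mean of at least 1 FPKM, 785 of all genes were lower at 6 d and 9 other pathway genes lower at 9 d, with fewer genes tested. The cause of the other shifts was not tested.

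Without 1 library, members called ran from 10 to 11 higher and 34 to 40 lower at 3 d (all genes 1191 to 1349 and 2294 to 2344), and from 20 to 24 higher and 1 to 4 lower at 6 d (all genes 495 to 542 and 1173 to 1239). The 1 came without 6 d replicate 2. From 6 to 9 d, other pathway genes ran from 32 to 36 higher and 16 to 18 lower (all genes 366 to 409 and 253 to 292).

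DESeq2 called 0 circRNAs higher, 0 lower and 0 of member loci, with 3 of all circRNAs at an unadjusted p under 0.05. With at least 20 counts edgeR called 0 higher, 0 lower and 0 of member loci, and with no filter 0 were lower. Without 1 library 10 to 16 circRNAs were higher and 0 to 1 lower, with 1 higher of member loci throughout.

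With a replicate block 0 circRNAs were lower and 8 higher, other pathway genes were 35 higher at 9 d, and members stayed at 10 higher and 37 lower at 3 d and 22 higher and 3 lower at 6 d. Replicate numbers were not taken to pair samples: of 18 pairs with the same number 0 correlated over 0.1 (range -0.08 to 0.09). In 19 of 36 combinations of a library and another day, the best match did have the same number.

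Of 3394 values of named genes under an alternative, 3217 kept their side of the threshold, 138 lost their call, 39 gained one and 0 changed sign while called. The filter on the mean before 9 d was chosen after seeing the data. FPKM hold no read counts, and counts of most circRNAs were too low for a test.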
